A study of Capra hircus with 2 samples.

Results

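The outer root sheath is the sleeve of keratinocytes that encloses the growing hair and runs into the epidermis at the skin surface. Its cells build filaments from keratin pairs, of which KRT5 with KRT14 belongs to the outermost layer, and KRT6A is a type II keratin known from the inner layers of the sheath and from keratinocytes after wounding. GJB6, GJB2 and GJA1 encode connexins, the proteins of gap junctions that let small molecules pass from cell to cell. GJB6 is known from keratinocytes of the hair follicle.

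KRT6A-high cells were chosen by a rule on measured values, which used KRT6A itself. A cell was kept when at least 20 of each 10000 of its unique molecular identifiers (UMIs, 1 for each captured transcript) and at least 5 UMIs in all came from KRT6A. Cells with LOR, a granular layer gene, at 5 or more per 10000 were left out, as were those with KRT35, a hair cortex keratin, at 20 or more per 10000 or with 3 or more UMIs of the cycling genes TOP2A, CENPF, UBE2C and BIRC5. The rule found 25 of 3443 kept cells in the library named CT-LCG, here CT, which is 0.726% (0.470 to 1.07), and 242 of 9608 in that named FT-LCG, here FT, which is 2.52% (2.22 to 2.85). Together these were 267 of 13051 cells. The 2 libraries came from the shoulder skin of 2 Liaoning cashmere goats in the hair growth phase, 1 goat of coarse type (CT) and 1 of fine type (FT), and were measured by single-cell RNA sequencing of dissociated skin after removal of dead cells. No source used here states the age or sex of the goats. The table of kept cells names the libraries, but the sample labels did not say which sample was which type, so values are given by library and not by group. With 1 goat a library there was no replicate and no test, and animal, library and fibre type cannot be told apart. Intervals in brackets are exact at 95%, Clopper-Pearson for shares and Poisson for levels, and cover counting error only.

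A level below is the number of UMIs of a gene per 10000 UMIs, summed over the cells named. KRT6A-high cells had a median of 5713 UMIs in CT (1021 to 45259) and 11042 in FT (746 to 95060), against 2292 and 6027 in the other kept cells. Those of CT held 268323 UMIs in all, of which the 3 deepest cells gave 43.3%. These 3 cells had KRT10 at 261, 182 and 294 per 10000 and KRT14 at 1.55, 1.86 and 1.79, and summed levels of CT are given without them, a choice made after seeing the data, where they moved most. Leaving out these 3 cells alone raises the log2 ratio of a gene that has no UMI in them by 0.82. Those of FT held 3273903 UMIs. No barcode of a KRT6A-high cell occurred in both libraries, although 11 barcodes among the kept cells did. No doublet caller was run.

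The limit on KRT6A cut through a continuous range. In FT the KRT6A-high cell nearest the limit had 20.1 per 10000 and the nearest cell below it 19.6, with 39 cells between 20 and 25 inside and 30 between 15 and 20 outside. In CT the nearest values were 22.0 inside and 19.8 outside, with 1 and 5 cells in the same ranges. KRT6A was also read outside the chosen cells, where 586 kept cells of CT and 3475 of FT had a KRT6A UMI. The chosen cells held 49.0% of all KRT6A UMIs in CT and 68.9% in FT. The condition of 5 UMIs removed 18 and 132 cells that reached 20 per 10000, with median depths of 1072 and 973.5 UMIs, so shallow cells were underrepresented. LOR removed 1 and 12 more cells, the cycling genes 1 and 5, and KRT35 0 and 1.

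Single cells differed widely in the keratins around KRT6A. KRT6A ranged from 22.0 to 160 per 10000 in CT with a median of 49.0, and from 20.1 to 443 in FT with a median of 53.3, all above the limit by choice. KRT14, the type I keratin of the basal layer, ranged from 1.55 to 570 with a median of 36.9 in CT. In FT it ranged from 0 to 1173 with a median of 218. KRT14 thus ran from levels of endothelial cells, which had 4.68 and 9.45 per 10000, to above the basal keratinocytes, which had 260 and 318. Both sets were chosen with limits on KRT14, under 50 for endothelial and 100 or more for basal cells. Their KRT14 levels were thus in part set by choice. KRT10, the type I keratin of the spinous layer, ranged from 3.37 to 542 with a median of 29.0 in CT and from 0 to 598 with a median of 7.52 in FT. KRT14 was at 100 or more in 10 of 25 and 145 of 242 cells and KRT10 at 20 or more in 16 and 78, with both in 5 and 26 cells and neither in 4 and 45.

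**Figure D1:**
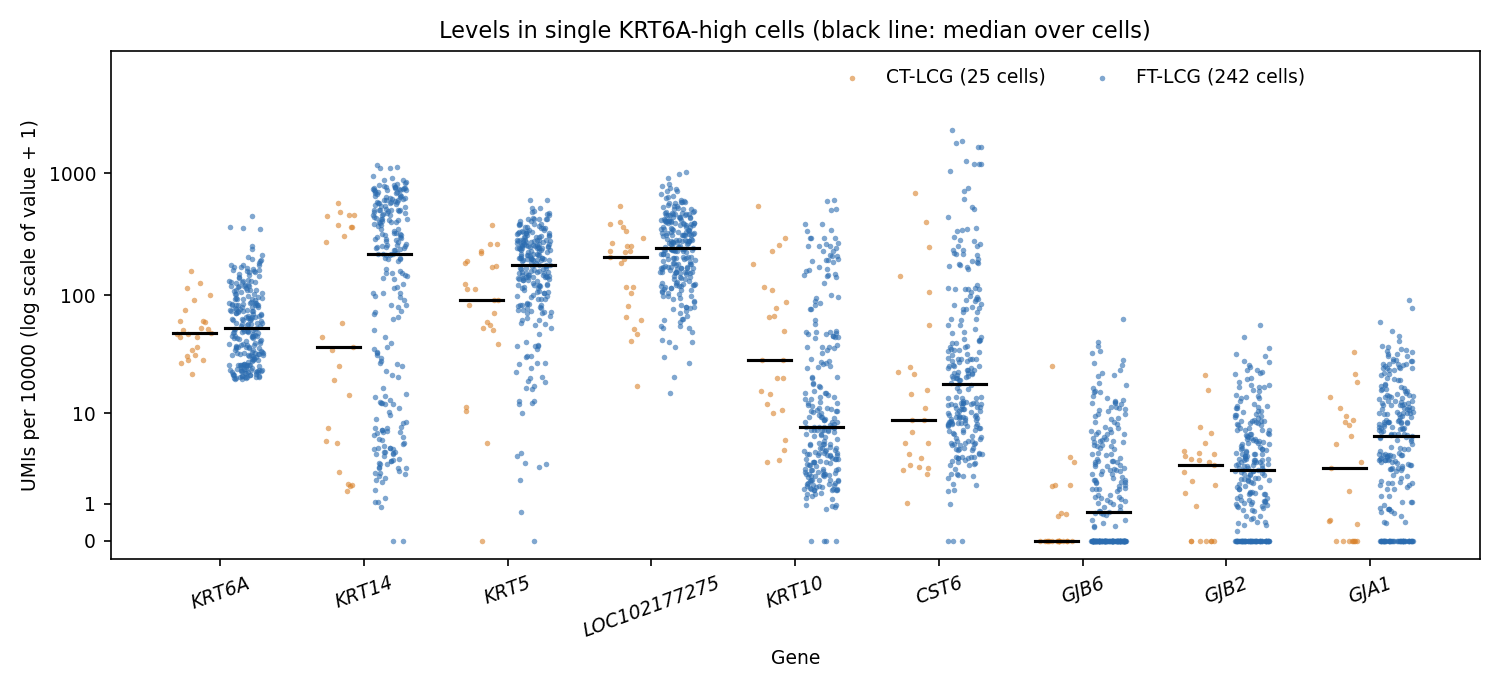
Each point is 1 KRT6A-high cell, with UMIs per 10000 of the gene on the vertical axis, on a log scale of the value plus 1, and 25 cells of CT beside 242 of FT for each gene. KRT6A lies above 20 by choice, KRT14 falls into a high and a low band in both libraries, and GJB6 is at 0 in many cells, with medians of 0 and 0.704.

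The label of outer root sheath was set against its other marker, GJB6. In CT a GJB6 UMI was read in 9 of 25 KRT6A-high cells, with a summed level of 1.42 (1.00 to 1.94) against 0.112 in the other kept cells, a log2 ratio of 3.67 (3.14 to 4.16). In FT it was read in 131 of 242 cells, with 4.92 (4.68 to 5.16) against 0.790, a log2 ratio of 2.64 (2.56 to 2.72). GJB6 was not 2-fold higher than in cells chosen on SFRP1, a WNT antagonist of the bulge and outer root sheath (at least 5 per 10000 and 3 UMIs of SFRP1, KRT6A under 5 per 10000). These 23 cells of CT and 298 of FT had 1.59 and 5.11, and the log2 ratio of KRT6A-high over SFRP1 cells was −0.17 (−1.0 to 0.71) and −0.06 (−0.17 to 0.05). Without the 3 deepest cells of CT the sign turned there, with GJB6 at 1.97 and a log2 ratio of 0.31 (−0.57 to 1.22). With each cell thinned to 1000 UMIs, 22.0% (16.9 to 27.9) of the KRT6A-high cells of FT kept a GJB6 UMI, 6 cells being too shallow, against 54.1% before thinning. The share was 28.0% in SFRP1 cells and 2.15% in endothelial cells, a type that should lack GJB6, whose median depth was 3213 UMIs. In CT thinning left a GJB6 UMI in 2 of 25 KRT6A-high cells and in 0 of 24 endothelial cells.

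A part of the KRT6A-high cells went against the label. KRT10 was at 20 or more per 10000 in 16 of 25 cells of CT and 78 of 242 of FT, and 12 and 59 of these had no GJB6 UMI. This limit was also passed by 14 of 26 endothelial cells in CT and 20 of 97 in FT, and the part of free RNA was not tested. The passing KRT6A-high cells, chosen on KRT10, had a summed KRT10 level of 207 (200 to 215) and 193 (190 to 196). Endothelial cells as a whole, not chosen on KRT10, had 18.2 and 13.4, so these levels are no like comparison. The passing KRT6A-high cells had KRT14 at 51.5 and 58.4, GJB6 at 0.718 and 0.741 and GJA1 at 1.17 and 1.87. The 9 and 164 cells with less KRT10 had KRT14 at 242 and 348, GJB6 at 2.35 and 6.17 and GJA1 at 9.21 and 9.39. SFRP1 showed the same split, with 6.95 and 4.00 in cells with less KRT10 against 0.587 and 0.966 in the rest. SOX9 and BARX2 differed less. SOX9 was at 6.35 and 5.16 in cells with less KRT10 and at 3.26 and 6.44 in the rest, and BARX2 at 5.91 and 4.27 against 4.501 and 3.53. The 3 deepest cells of CT were all among the passing cells. Without them the 13 passing cells that remained had KRT10 at 105.9 (95.6 to 117), KRT14 at 208 (193 to 223), GJB6 at 0.810 (0.167 to 2.37), GJA1 at 3.51 (1.87 to 6.004), SFRP1 at 2.43 (1.11 to 4.61) and SOX9 at 5.94 (3.72 to 8.995). In CT the cells with less KRT10 were deeper, with median depths of 10726 and 2698 UMIs, and in FT these were 12107 and 6946. The name outer root sheath is therefore used here only for the rule, and the cells are called KRT6A-high.

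KRT6A-high cells were then set beside all other kept cells of their library. A gene was compared when the 2 sets held at least 50 of its UMIs, and it was called when the levels differed by 2-fold or more. In CT 1333 of 11566 genes were higher, which is 11.5%, and 1220 were lower, which is 10.5%. In FT 784 of 13583 were higher, which is 5.77%, and 2281 were lower, which is 16.8%. Many of these calls stood on few UMIs in the small set, and where equal levels would have given at least 10 UMIs in KRT6A-high cells, the shares were 3.85% higher and 13.4% lower in CT and 4.58% higher and 14.1% lower in FT. The median log2 ratio over all genes compared was 0.05 and −0.17. There were 311 genes higher in both libraries, 23.3% of the CT calls and 39.7% of those in FT, and 451 lower in both. Without the 3 deepest cells of CT 2199 genes were higher there, which is 19.0%, and 1041 lower, which is 9.003%, with a median log2 ratio of 0.25. The counts below are to be read against these shares.

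GJA1, GJB2 and GJB6 were called higher in both libraries. Of 8 gap junction genes, 5 were called higher in CT and 3 in FT, with 0 lower and median log2 ratios of 1.33 and 0.84. GJA1, the most widespread connexin, had a UMI in 17 of 25 and 196 of 242 KRT6A-high cells. Its summed level was 4.62 (3.84 to 5.51) in CT against 0.575 in other cells, and 7.65 (7.36 to 7.96) in FT against 1.04, with log2 ratios of 3.01 and 2.88. In CT GJA1 was at 7.83 (6.48 to 9.36) without the 3 deepest cells. Over SFRP1 cells its log2 ratio in CT was 0.29 (−0.21 to 0.82), or 1.05 (0.54 to 1.58) without those 3 cells. In FT GJA1 did not reach 2-fold over SFRP1 cells. GJB2, which pairs with GJB6 in keratinocytes, was at 3.88 (3.17 to 4.70) and 6.02 (5.76 to 6.29) against 1.71 and 0.999 in other cells. Unlike GJB6, it also exceeded the SFRP1 cells, where it was at 0.504 and 1.22, with log2 ratios of 2.94 (1.77 to 4.42) and 2.31 (2.12 to 2.49). After thinning to 1000 UMIs a GJB2 UMI remained in 32.2% of KRT6A-high cells of FT, 10.4% of spinous cells, 6.49% of SFRP1 cells and 1.08% of endothelial cells. In CT the shares were 24.0% (9.36 to 45.1) of 25 KRT6A-high cells, 15.4% of spinous cells, 4.35% of SFRP1 cells and 8.33% (1.03 to 27.0) of 24 endothelial cells, and the intervals of KRT6A-high and endothelial cells overlapped.

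**Figure D2:**
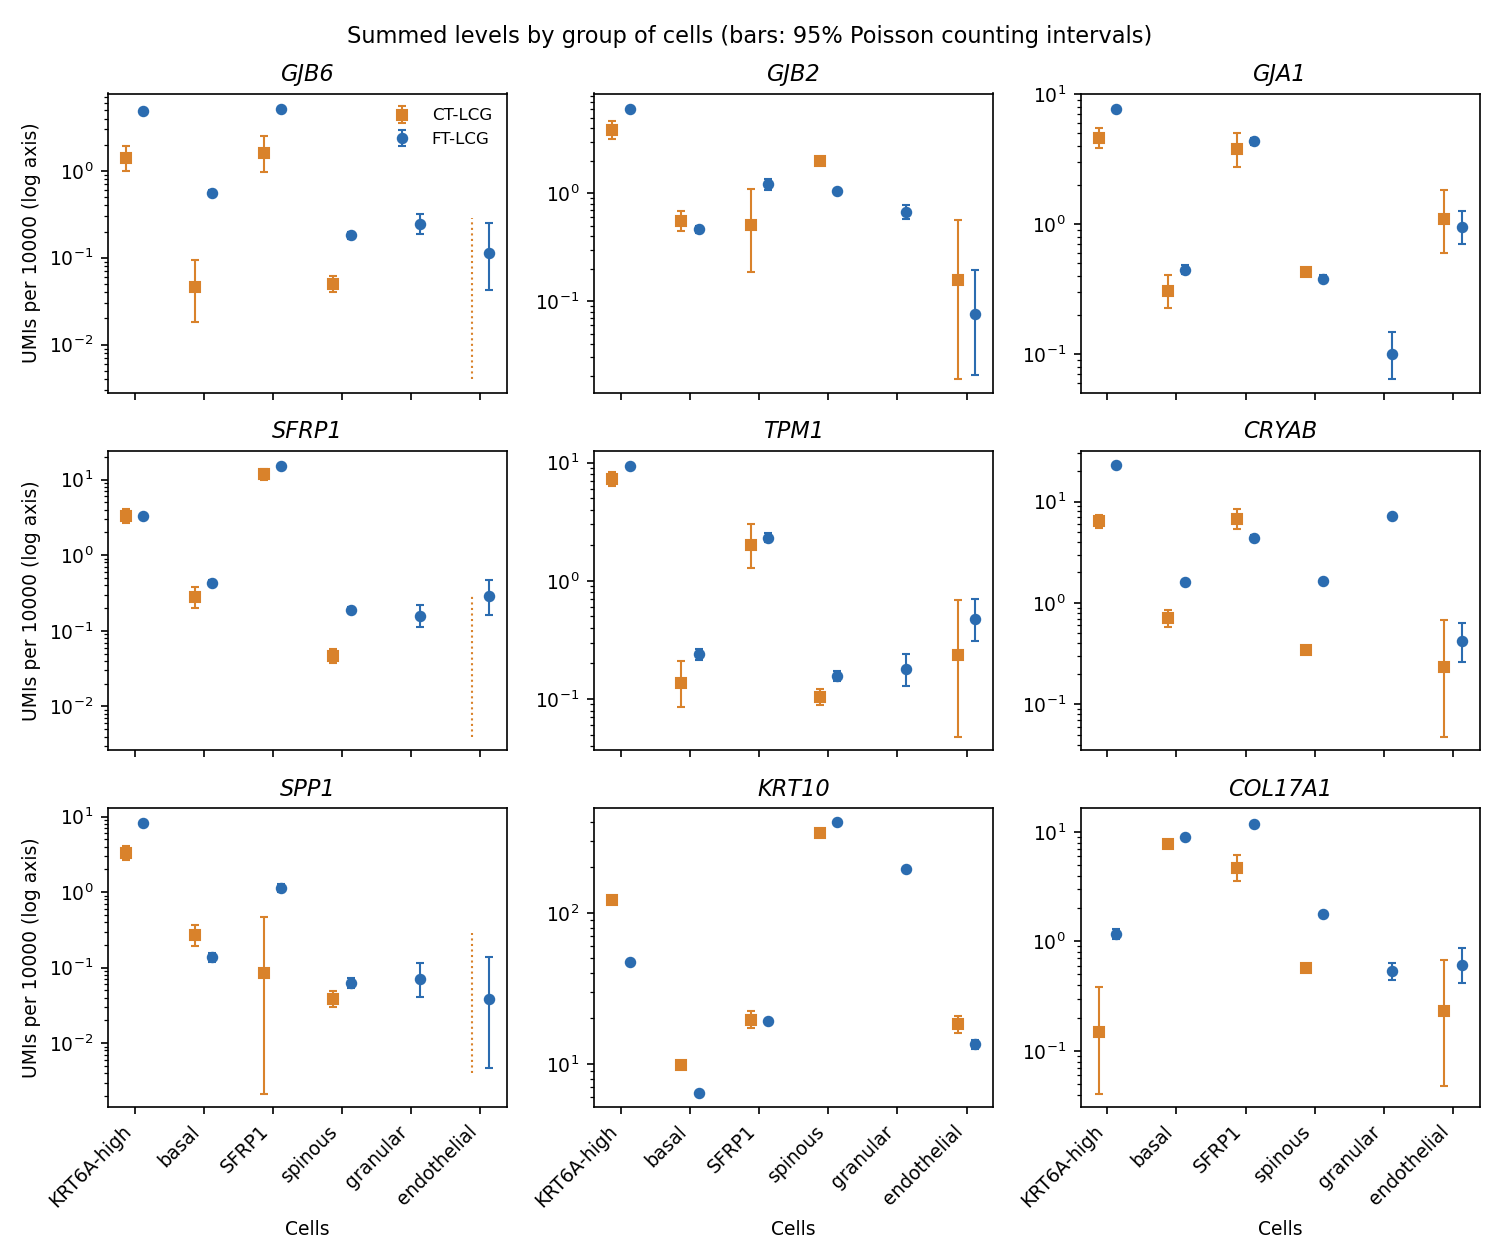
Points are summed levels in UMIs per 10000 on a log axis for 9 genes in KRT6A-high cells and in basal, SFRP1, spinous, granular and endothelial cells of each library, with bars for exact 95% Poisson intervals and dotted lines for the upper limit of a count of 0. TPM1 and SPP1 are higher in KRT6A-high cells than in any other set shown, GJB6 is as high in SFRP1 cells, and COL17A1 is below basal and SFRP1 cells. The 17 granular cells of CT were too few to be drawn.

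By the rule for named genes, which ranked 665 genes by the weaker of the 2 libraries, the 15 largest ratios belonged to KRT6A, which chose the cells, and 14 others. In CT 7 of these 14 ratios moved by over 1.5 times when the 3 deepest cells were left out, and the 14 then lay between 2.73 and 5.61 on the log2 scale, against 2.23 to 4.81 with them. TPM1, a tropomyosin that binds actin filaments, followed KRT6A. It was at 7.27 (6.28 to 8.36) in CT against 0.259 in other cells and at 9.31 (8.98 to 9.65) in FT against 0.567, with log2 ratios of 4.81 and 4.04. In CT TPM1 was at 12.6 (10.9 to 14.5) without the 3 deepest cells, above FT. TPM1 was read in 198 of 242 cells of FT, with a median of 7.37 per cell and a highest value of 61.9, and in 15 of 25 cells of CT. It also exceeded SFRP1 cells, with log2 ratios of 1.85 (1.24 to 2.53) and 2.01 (1.87 to 2.15), or 2.65 (2.0 to 3.3) in CT without its 3 deepest cells.

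SPP1, the secreted phosphoprotein osteopontin, was at 3.28 (2.63 to 4.04) in CT and 8.24 (7.93 to 8.56) in FT, against 0.357 and 0.292 in other cells. Its per-cell median was 0 and 1.17 and its highest value 15.3 and 186, so that the level rested on a part of the cells. CRYAB, a small heat shock protein, was at 6.41 (5.49 to 7.44) and 22.7 (22.2 to 23.2) against 0.806 and 2.98. Its log2 ratio over SFRP1 cells was −0.09 (−0.47 to 0.31) in CT and 2.37 (2.28 to 2.47) in FT. With the 3 deepest cells of CT left out, SPP1 was at 5.52 (4.41 to 6.84) and CRYAB at 10.1 (8.59 to 11.9) there, and CRYAB then stood above SFRP1 cells by 0.57 (0.18 to 0.98).

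The actin and adhesion genes in the ranking were GSN, FILIP1L and ALCAM beside TPM1. GSN encodes gelsolin, which severs actin filaments, and was at 29.6 (27.6 to 31.7) and 46.8 (46.1 to 47.6) against 4.63 and 12.5. It was read in 24 of 25 and 240 of 242 KRT6A-high cells, nearly all of them. Against SFRP1 cells GSN kept 2-fold in CT but not in FT. ALCAM, a cell adhesion molecule, was at 1.90 and 1.13 against 0.241 and 0.276, and stood above SFRP1 cells by log2 ratios of 3.50 and 3.23. FILIP1L, related to a partner of the actin crosslinker filamin, was at 2.31 and 2.45 against 0.36 and 0.446. It reached 2-fold over SFRP1 cells in neither library. TAGLN, another actin-binding gene fixed as a muscle marker, was at 0.596 and 2.67 against 0.207 and 0.455. The muscle genes MYH11 and DES had 0 UMIs in CT and 1 each in FT, and ACTA2 had log2 ratios of 0.90 (−0.74 to 2.14) and −0.27 (−0.70 to 0.14). Leaving out the 3 deepest cells of CT brought ACTA2 past 2-fold there, to 1.72 (0.084 to 2.96) on 5 UMIs, and TAGLN to 2.25, so that 2 of 3 muscle genes were higher. Over all 25 cells of CT 1 cell gave 75% of the 16 TAGLN UMIs.

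The remaining places included a proton pump subunit and a tubulin. ATP6V1B1, a subunit of the proton pump of kidney and other epithelia, was at 3.43 (2.76 to 4.21) and 3.30 (3.11 to 3.50) against 0.734 and 0.728, and at 4.87 (3.82 to 6.11) in CT with its 3 deepest cells left out. SFRP1 cells had 0 UMIs of it in CT and 0.155 in FT. TUBA1A, an alpha tubulin, was at 7.68 (13.0 with those cells left out) and 7.10 against 0.821 and 1.82, and RASSF9 at 2.53 and 1.19 against 0.256 and 0.315. Against SFRP1 cells TUBA1A kept 2-fold in CT but not in FT, and RASSF9 in neither library. LOC102188051, which the files do not name further, was at 1.94 and 4.00 against 0.211 and 0.396.

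LOC102177275 was read in every KRT6A-high cell. Its level was 207 (201 to 212) in CT and 303 (301 to 305) in FT, against 23.1 and 78.1 in other cells and 3.66 and 9.38 in endothelial cells. Per cell it ran from 17.2 to 541 with a median of 205 in CT and from 15.03 to 1027 with a median of 242 in FT. In the annotation of the goat assembly ARS1.2 it lies in the row of type I keratin genes, with LOC102180424 between it and KRT14.

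The transcription factors showed BARX2, SOX9 and TBX1 higher in both libraries. Of the outer root sheath factors listed, 5 of 14 were called higher and 2 lower in CT, and 4 of 15 higher and 2 lower in FT, with medians of 0.64 and 0.34. BARX2, a homeobox factor, was at 5.11 (4.29 to 6.04) and 4.10 (3.88 to 4.32) against 0.480 and 1.00. SOX9, a factor needed for the outer root sheath, was at 4.58 (3.81 to 5.47) and 5.46 (5.21 to 5.71) against 0.610 and 2.07. Over SFRP1 cells of CT the log2 ratio was 1.53 (0.87 to 2.27) for BARX2 and 0.96 (0.36 to 1.61) for SOX9. The latter was 1.41 (0.79 to 2.07) without the 3 deepest cells. In FT neither gene reached 2-fold over SFRP1 cells. TBX1 was at 0.820 and 0.672, above the other cells with 0.0521 and 0.231 and SFRP1 cells had 2.10 and 2.54. In CT the log2 ratio of TBX1 over SFRP1 cells was −1.36 (−2.25 to −0.47), or −0.60 (−1.51 to 0.29) with the 3 deepest cells left out. LHX2, a factor of the bulge, had 0 UMIs in CT and was 1 of the 4 called higher in FT, on 10 UMIs in 10 cells, with a log2 ratio of 1.97 (0.84 to 2.94). GATA3, known from the inner root sheath and the epidermis, and KLF5 were the 2 lower genes in both, with log2 ratios of −1.30 and −1.08 for GATA3 and −1.35 and −1.51 for KLF5. When the 3 deepest cells of CT were left out GATA3 was at −0.70 there, under 2-fold, and the counts were 6 higher and 1 lower.

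Genes that tie a keratinocyte to the basement membrane and genes of cell to cell junctions were counted as 2 lists. In the hemidesmosome and basement membrane list, 1 of 11 genes was higher and 4 lower in CT, and 0 higher and 7 lower in FT, with medians of −0.71 and −1.63. Without the 3 deepest cells of CT 3 were higher and 3 lower there, with a median of 0.11. COL17A1, a collagen of the hemidesmosome, had 4 UMIs in CT, a level of 0.149 (0.0406 to 0.382) against 1.54 in other cells. In FT it was at 1.17 (1.05 to 1.29) against 4.42, with log2 ratios of −3.37 and −1.92. With the 3 deepest cells of CT left out, COL17A1 was at 0.263 (0.0717 to 0.674) there, a log2 ratio of −2.55 (−4.43 to −1.19). It stood far under the basal cells, with 7.72 and 8.996, and the SFRP1 cells, with 4.70 and 11.9, although KRT5 was at 108 and 173 in KRT6A-high cells, or 159 in CT with its 3 deepest cells left out, against 128 and 150 in basal cells. Of 12 desmosome genes, 7 were called higher in CT and 3 in FT, with 0 lower and medians of 1.19 and 0.78, and without the 3 deepest cells 9 were higher and 1 lower in CT. Of these 9, PKP2 and DSG4 stood on 1 UMI each and PKP1 on 8, with intervals that held 0. DSC3, a desmosomal cadherin, was at 6.86 (5.90 to 7.92) and 6.34 (6.07 to 6.62) against 2.04 and 2.25, with 10.98 in CT when those cells were left out, and DSG1, another, did not reach the fold with log2 ratios of 0.41 and 0.87.

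The 10 smallest ratios were those of S100A7A, SPINK7, LOC102169125, LY6D, LOC102175311, AQP3, LOC102168547, B2M, SAT1 and EHF. In CT 6 of these 10 moved by over 1.5 times when the 3 deepest cells were left out, and the 10 then lay between −4.11 and −1.80. S100A7A was at 3.47 and 0.587 against 91.8 and 21.4 in other cells, with log2 ratios of −4.73 and −5.19, and SPINK7, a protease inhibitor, had −4.71 and −5.16. In endothelial cells, which should lack both genes, S100A7A was at 6.78 and 1.15, above the KRT6A-high cells. LY6D, a surface protein of keratinocytes, was at 2.76 and 1.15 against 10.7 and 9.18. AQP3, the water and glycerol channel of the epidermis, was at 4.36 and 5.86 against 29.4 and 19.0. B2M, the light chain of class I histocompatibility molecules, was at 10.5 (9.32 to 11.8) and 8.27 (7.96 to 8.58) against 31.4 and 29.8. SFRP1 cells were also low in B2M, with 11.2 and 14.9, and the log2 ratio of KRT6A-high over SFRP1 cells was −0.10 (−0.40 to 0.21) and −0.85 (−0.92 to −0.77), or −0.59 (−0.96 to −0.21) in CT with its 3 deepest cells left out. EHF, an epithelial transcription factor, and SAT1, a polyamine enzyme, had log2 ratios between −1.79 and −1.43.

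Fibroblast, endothelial, immune and melanocyte markers were near 0. The 5 fibroblast markers summed to 0 in CT and 0.0947 in FT, with LUM and DCN at 0 in both. The 4 endothelial markers summed to 0.0745 and 0.0122, the 5 immune markers to 0.0373 and 0.0825 with CD74 the most abundant, and the 4 melanocyte markers to 0 and 0.00916. PTPRC, CDH5 and DCT were at 0 in both libraries. Sebaceous markers were not near 0. They summed to 6.71 and 8.67 against 8.04 and 7.91 in other cells, with a UMI in 21 of 25 and 224 of 242 cells, and MGST1 alone made 5.85 and 6.49 of the sums, while 0 genes were called higher, and 1 of 5 and 4 of 6 lower. The muscle list, with TAGLN the most abundant, summed to 0.783 and 2.83 against 0.335 and 0.741. The part of either cell type in the results was not tested. Inner root sheath markers summed to 2.68 (4.14 with the 3 deepest cells of CT left out) and 1.67 against 6.63 and 18.7 in other cells, with 4 of 4 genes lower in both libraries, but 0 of 4 in CT without its 3 deepest cells. Cortex and matrix markers summed to 0.671 and 0.889 against 1.70 and 5.69, with 1 of 6 higher and 2 and 5 lower, or 1 lower in CT when its 3 deepest cells were left out. The higher one was HOXC13, a factor of hair keratin genes, at 0.298 and 0.449 against 0.0460 and 0.105. The sweat gland list summed to 0.335 and 0.580 with KRT7 the most abundant, with 0 of 4 genes higher and 1 and 3 lower. KRT7 was higher in CT when its 3 deepest cells were left out, with a log2 ratio of 1.40 (0.27 to 2.34) on 9 UMIs, all from 1 cell.

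Markers of the epidermal layers were present. The spinous list summed to 364 in CT, or 147 with its 3 deepest cells left out, and to 204 in FT, against 601 and 369 in other cells, with 0 of 5 genes higher and 1 and 2 lower, or 4 lower in CT without its 3 deepest cells. The basal list summed to 242, or 393 with those cells left out, and 456 against 76.3 and 227, with 2 of 5 higher, KRT5 and KRT14, and 2 and 3 lower. In FT KRT14 stood on the 2-fold line, with a log2 ratio of 1.002, and was under it with a KRT6A limit of 10, with cells of at least 1000 genes, without the 5% of cells with the most UMIs and by the mean over cells, at 0.66 to 0.99, and KRT5 was at 0.91 with the limit of 10. The bulge and outer root sheath list had 4 of 7 higher and 1 lower in CT and 3 of 8 higher and 0 lower in FT. Among the CT calls LGR5 and TCF7L1, called higher, had 3 UMIs each, and KRT19, called lower, had 1. In the granular list, which held the rule's LOR, CST6 was higher in CT and 0 of 3 genes were higher in FT. CST6, a cysteine protease inhibitor, had 85.0% of its CT UMIs in 1 cell, and its log2 ratio there was −0.14 without the 3 deepest cells. Of the cycling list, which overlaps the rule, 0 genes were higher, or 1 in CT without those cells.

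KRT6A-high cells of FT were described further by their own order of KRT6A. In 4 groups of 61, 61, 60 and 60 cells, from 20.1 to 31.1, 31.4 to 53.7, 55.4 to 93.5 and 94.2 to 443 KRT6A UMIs per 10000, KRT14 was at 115, 160, 296 and 604. TPM1 was at 3.67, 8.11, 11.9 and 14.9, and GJA1 at 4.62, 6.04, 10.8 and 10.2. KRT10 went the other way with 92.9, 56.8, 18.4 and 10.7. GJB6, with 5.19, 5.22, 6.001 and 3.24, did not follow KRT6A, and neither did LOC102177275, with 275, 316, 329 and 297. Over the 242 cells Pearson's r between KRT6A and KRT14 was 0.56 and Spearman's rho 0.60, and between KRT14 and KRT10 these were −0.47 and −0.43. The cells share 1 library, differ in depth, and were cut on KRT6A, so these are descriptions. Depth itself had an r of −0.19 with KRT6A. In CT, with 25 cells, KRT14 was at 146, 64.3, 10.7 and 335 in the 4 groups. The 3 deepest cells, low in KRT14, fell 1 each into the first 3 of these groups, so no order was read. Over the 25 cells Pearson's r between KRT6A and KRT14 was 0.315 and Spearman's rho 0.25.

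**Figure D3:**
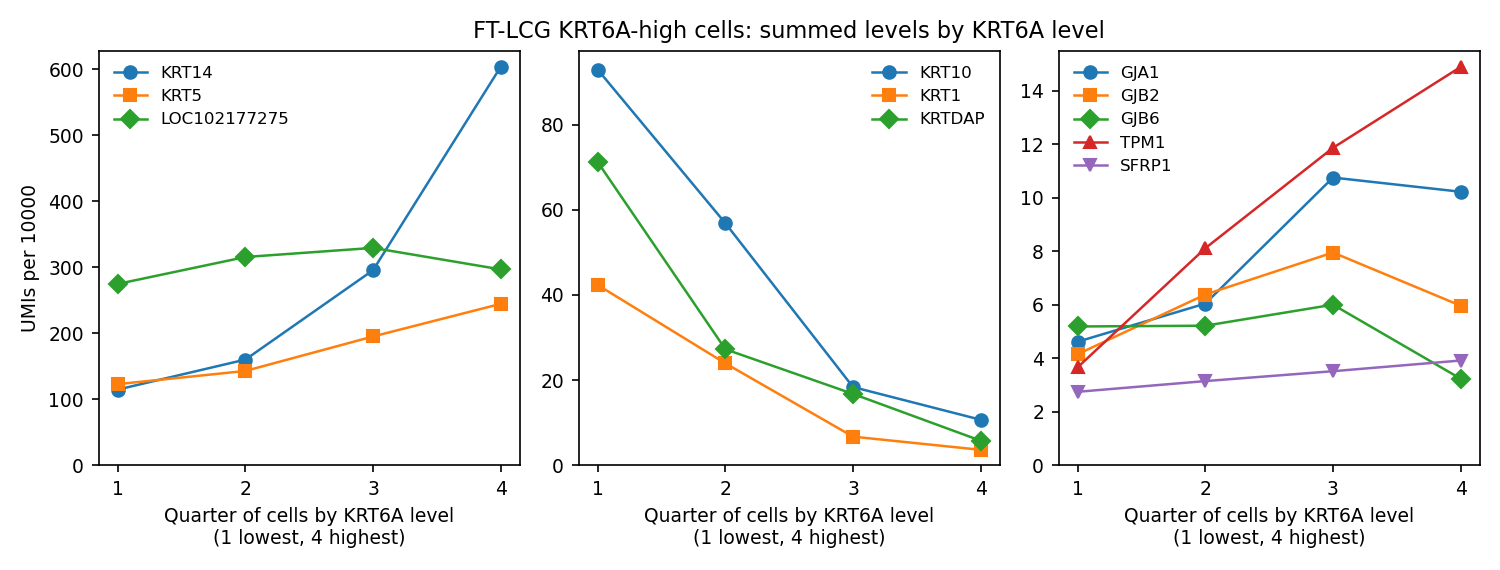
Lines join the summed levels, in UMIs per 10000, of 11 genes over 4 groups of FT KRT6A-high cells ordered by KRT6A. KRT14, KRT5 and TPM1 are highest in the last group, KRT10, KRT1 and KRTDAP in the first, and LOC102177275 and GJB6 have no such order.

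Clustering the 242 cells of FT on their variable genes gave 5 clusters, which are called by number. The genes used in clustering make these levels descriptions and no test. Cluster 1 had 82 cells, with SPARC, a matrix glycoprotein, at 7.64 against 1.10 in the other KRT6A-high cells. It also had the most SFRP1, at 7.27, with KRT14 at 380, GJB6 at 7.16 and GJA1 at 11.5. LGR5, a stem cell receptor of the follicle, was among its leading genes but had 57 UMIs in 18 cells. Cluster 3, with 51 cells, had the most KRT14, at 575, and the most KRT6A, at 118. Among its leading genes was LOC102180424, the neighbour of KRT14, at 4.85 against 1.35 in the others.

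Cluster 5 had 23 cells and the most connexin UMIs, with GJB6 at 16.5 (15.3 to 17.7), GJB2 at 19.9 (18.6 to 21.3) and GJA1 at 16.3 (15.1 to 17.5). It had SFRP1 at 0.478, and KRT10 at 2.53, the lowest of the 5. Its leading genes included LOC102176685, in the same row of keratin genes as KRT6A, at 84.0 against 0.921 in the other KRT6A-high cells and read in 21 of 23 cells. WNT11, a WNT ligand, was at 3.66 against 0.0388, in 13 cells. CRYAB at 66.3, SPP1 at 32.6, KLK10 at 57.1 and TM4SF1 at 53.6 were also highest there, with no more than 28.8% of any of these 4 from 1 cell. Its median depth was 19298 UMIs, the highest of the 5 clusters, and the part of depth in this set was not tested. The same 23 cells formed a cluster with 10 neighbours and at a resolution of 1, and 22 of them did at 0.3, settings chosen after seeing the data.

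Cluster 4 and cluster 2 held the KRT10. Cluster 4, with 23 cells, had KRT10 at 235, KRTDAP at 221 and KLK7, a protease of the cornified layer, at 24.6, while KRT14 was at 13.8 and GJB6 was read in 3 cells. CNFN and IL36RN, genes of the outer epidermis, were among its leading genes, at 2.81 and 3.54 against 0.0374 and 0.0510. These leading genes go against the name outer root sheath, and TPM1 there came from 1 cell. Cluster 2, with 63 cells, had KRT10 at 72.4, CST6 at 269, KRT79 at 4.17 and KRT14 at 59.6. PDK4, a kinase that restrains pyruvate use, was at 3.08 against 0.249 and read in 38 cells. FOS at 43.5, DUSP1 at 18.2 and HBEGF at 5.38, genes that respond quickly to handling and growth signals, were highest there, and the part of dissociation in this was not tested. SOX9 was at 6.24 in cluster 2 and 7.35 in cluster 4, no lower than the 5.84 of cluster 1. The number of clusters was 3 at a resolution of 0.3, 8 at a resolution of 1 and 6 with 10 neighbours, so the boundaries depended on the setting. The 25 cells of CT formed 1 cluster, or 3 at a resolution of 1.

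**Figure D4:**
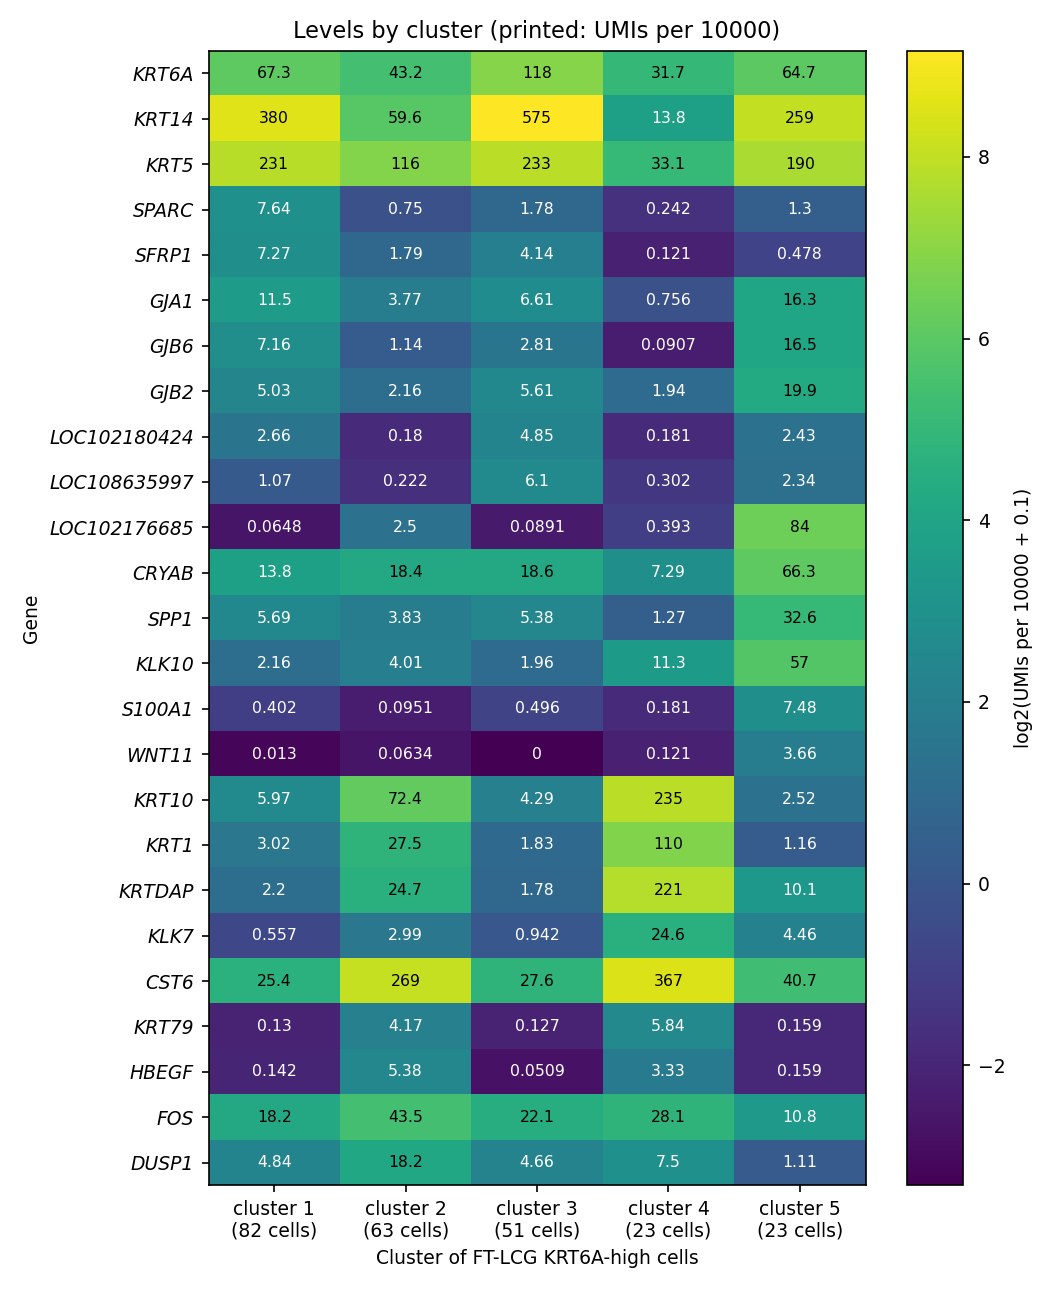
Colours and printed numbers give summed levels in UMIs per 10000 for 25 genes in the 5 clusters of FT KRT6A-high cells, with the colour on a log2 scale of the level plus 0.1. Cluster 5 holds the highest GJB6, GJB2, LOC102176685 and WNT11, and cluster 4 the highest KRT10 and KRTDAP with little KRT14.

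Genes next to KRT6A were looked at after their values were seen. In the order of the ARS1.2 annotation KRT6A follows KRT5 and is followed by LOC108635997, LOC108633262 and LOC102176685. In FT these 3 had log2 ratios of 5.50, 4.86 and 5.56, close to the 5.80 of KRT6A, at levels of 2.13, 0.748 and 12.1. They were read unevenly, with 45 of 242 cells giving all UMIs of LOC108635997 and 40 those of LOC102176685. In CT they had 2, 1 and 22 UMIs, and 86.4% of the last came from 1 cell. KRT74, 2 genes before KRT5, had 1 UMI in CT and 0 in FT. On the type I side LOC102180424 had log2 ratios of 4.46 and 4.59, at 0.894 and 2.19. In CT these were 24 UMIs in 6 cells, 66.7% of them from 1 cell. The log2 ratio there was 5.28 (4.58 to 5.93) without the 3 deepest cells. Keratin genes of a row share sequence, and how reads between near copies were assigned was not given in the sources used here, so counts of KRT6A, LOC102177275 and these neighbours are uncertain.

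**Figure D5:**
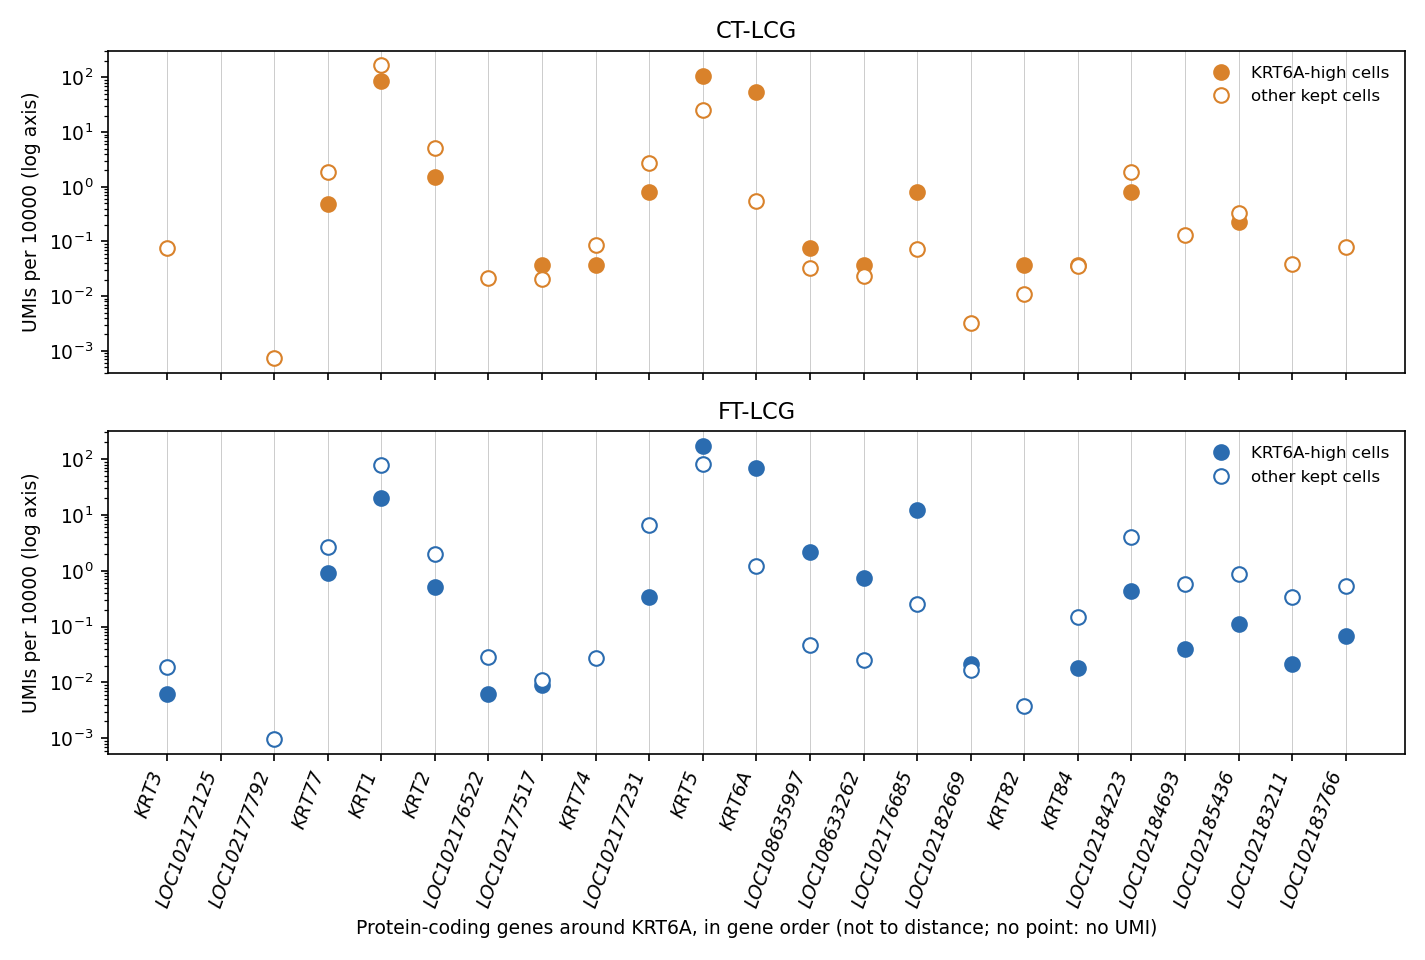
Filled points are KRT6A-high cells and open points all other kept cells, with UMIs per 10000 on a log axis and the 23 protein-coding genes around KRT6A in gene order, not to distance. In FT the 3 genes after KRT6A stand well above the other kept cells, and in CT LOC102176685 alone of the 3 does, through 1 cell.

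The KRT6A-high cells of the libraries were finally set side by side. Of 3693 genes with at least 100 UMIs in them together, 236 were 2-fold or more higher in CT and 240 in FT, and 77 and 84 of these differed in the same way between the other kept cells of the libraries. Of all these genes, 3.95% and 5.15% differed in that way between the other kept cells. The 5 largest ratios towards CT were those of S100A8, KLK6, LOC102169149, LOC102169125 and S100A9. S100A8, a calcium-binding protein of stressed keratinocytes and of neutrophils, was at 21.7 (20.0 to 23.5) in CT and 0.226 (0.177 to 0.284) in FT, and at 15.4 and 0.684 in other cells. Only 12 of 25 cells had it, and 51.9% of the UMIs came from 1 cell. KLK6 had 84.2% of its CT UMIs in 1 cell, LOC102169149 60.0% and S100A9 54.2%. Without the 3 deepest cells of CT the log2 ratios were 3.39 for S100A8, 2.98 for KLK6, 1.63 for LOC102169149 and 0.17 (−1.07 to 1.19) for S100A9, against 6.58, 5.36, 4.08 and 2.73. LOC102169125 was at 2.87 and 0.339, spread over 23 and 79 cells, but also at 38.0 and 4.68 in other cells. In other cells LOC102169149 was at 18.2 and 0.693 and S100A9 at 5.44 and 0.396, with log2 ratios of 4.71 and 3.78. Both differed more there than in all KRT6A-high cells. KLK6 was at 0.2538 and 0.2155 in other cells.

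The 5 largest ratios towards FT were those of LOC102180443, KRT19, S100A1, LOC108635997 and CXCL14. LOC102180443 was at 17.5 in FT, in 234 of 242 cells, and at 0.261 in CT, and other cells differed as much with 13.4 and 0.136. KRT19, a keratin of the bulge, had 1 UMI in CT and was at 1.58 in FT in 43 cells. S100A1 had 1 UMI against 1.26 per 10000 in 64 cells, and CXCL14, a chemokine, 3 UMIs against 3.09 in 79 cells. Of the CXCL14 UMIs of FT, 42.3% came from 1 cell. Other cells differed in the same direction, with log2 ratios of CT over FT of −1.75 for CXCL14, −1.05 for KRT19 and −1.17 for S100A1. For LOC108635997 the ratio in other cells was −0.55. KRT6A itself, which chose the cells, was at 54.8 (52.0 to 57.6) and 68.6 (67.8 to 69.5), with its lower end set by the common limit. In CT it was at 66.0 (62.0 to 70.2) when the 3 deepest cells were left out. KRT14 was at 133 and 281 and KRT10 at 121 and 47.4. Without the 3 deepest cells of CT KRT14 was at 233 (226 to 241) and KRT10 at 31.2 (28.5 to 34.2) there, so that the order of the libraries in KRT10 turned. The shares of cells with KRT10 at 20 or more were 64.0% (42.5 to 82.0) and 32.2% (26.4 to 38.5), and this difference between single goats was not tested. Endothelial cells differed in the same direction with 53.8% and 20.6%. The share of KRT6A-high cells was also higher in FT, but the sets of kept cells differed in makeup, with 51.5% spinous cells in CT and 26.8% in FT, and dissociation can set such shares, which was not tested.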

How the data were processed

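The authors made the deposited counts of UMIs per gene and barcode with Cell Ranger, version 3.0.2 per the file headers, and kept cells with at least 500 genes and few mitochondrial reads. The submitters' processing notes name builds of human and mouse, while the features carry goat gene names, and the goat build is not given in the sources used here. Both libraries are in 1 matrix, and the deposited table of kept cells gave the library of each cell. Of 27137 features, 27103 matched the reference table of goat genes (RefSeq, ARS1.2), used for names and gene order alone.

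Levels are summed UMIs per 10000 with exact Poisson intervals, and ratios have exact conditional binomial intervals. A level of 0 was set to 3 counts for a ratio, and none was given with both sets at or under 3 counts. Basal cells had KRT14 at 100 or more, KRT10 under 20, KRT6A under 5 and SFRP1 under 2 per 10000, spinous cells KRT10 at 100 or more, LOR and KRT6A under 5, granular cells at least 5 LOR UMIs and 5 per 10000, and endothelial cells at least 20 per 10000 and 5 UMIs of the endothelial markers with KRT14 under 50. No set was drawn with under 20 cells. Clustering used 1000 variable genes, 10 principal components, 15 neighbours and the Leiden algorithm at a resolution of 0.5 (scanpy 1.11.5, leidenalg 0.10.2, Python 3.11.15, scipy 1.17.1), within each library. Ratios and intervals were tested on simulated Poisson counts, the model that the intervals assume. These counts had no spread between cells, so the test cannot show how the intervals hold where single cells give most UMIs.

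Named genes were the 15 largest and 10 smallest ratios by the weaker library among genes with at least 50 UMIs in the cells of each library, the 5 largest each way between libraries, and list genes. The cells, lists and rules were chosen with earlier results of these data known. Genes listed but not matched by symbol, such as KRT15, KRT16, KRT17 and KRT75, are not analysed here. A few named and list genes are not reported here.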

Additional observations from a re-analysis of the deposited data

Results flagged for a closer look

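Some genes differed in direction between the libraries, with the log2 ratio of KRT6A-high over other cells above 0 in one and below 0 in the other. The differences were not tested, since each library came from 1 goat. Early response genes were on either side, with JUN at 0.57 in CT and −0.13 in FT, FOS at 0.59 and −0.17, JUNB at 0.63 and −0.34 and DUSP1 at 0.56 and −0.50. None of these 8 ratios reached 2-fold. S100A8 was at 0.49 and −1.60, with 51.9% of its CT UMIs in 1 cell. Leaving out the 3 deepest cells of CT turned S100A8 there to −2.70 (−3.22 to −2.24), below 0 as in FT. KRT79 was at 3.32 and −0.33, with 81.8% of its CT UMIs in 1 cell, and was at 1.65 in CT without the 3 deepest cells.

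Barcodes that the authors left out also held cells that met the rule, 6 of 2659 in CT and 6 of 1589 in FT. Their median depths were 893.5 and 672.5 UMIs and their median KRT6A levels 65.2 and 116 per 10000. They entered no result.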

How the results depend on the processing

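No paired analysis was possible because each library came from 1 goat and no test was run. The number of KRT6A-high cells in FT was 150 with a KRT6A limit of 40. Genes higher in CT numbered 2017 without the 5% of cells with the most UMIs, 2199 without the 3 cells with the most UMIs, 409 against basal cells and 123 with at least 10 UMIs due, and lower genes 2260 by the mean over cells, 574 against basal cells and 428 with 10 due. In FT 482 were higher and 1488 lower with 10 due. The limits of 10 due and of KRT10 and the removal of 3 cells were chosen after seeing the data. Against basal cells these log2 ratios changed sign in CT: S100A7A 0.092, SPINK7 0.37, LOC102169125 0.60, LOC102175311 2.65, KRT14 −0.97, KRT5 −0.25, and, from under 2-fold, KRT10 3.62 and KRT1 2.72. In FT they were LOC102175311 2.41, KRT14 −0.18, KRT10 2.88, KRT1 1.70 and, from under 2-fold, KRT79 1.98. Against SFRP1 cells they were, in CT, CRYAB −0.085, FILIP1L −0.39, LY6D 1.34, LOC102175311 2.06, AQP3 0.21, LOC102168547 0.0024, EHF 2.46, GJB6 −0.17, SFRP1 −1.83, CRABP2 −0.080, TAGLN −0.34, and, from under 2-fold, KRT10 2.63 and KRT1 2.52. In FT they were RASSF9 −0.10, LOC102175311 1.46, EHF 0.47, GJB6 −0.056, KRT10 1.31, KRT1 0.90, SFRP1 −2.22 and, from under 2-fold, KRT79 3.68. With cells of at least 1000 genes LOC102176685 was at −0.48 in CT. KRT79 was at 0.60 in FT with a KRT6A limit of 10. ITGA6 in CT, at −0.13, was at 0.028 without the 5%, 0.27 without the 3 cells and 0.088 with KRT10 under 20. CST6 was at −0.14 in CT without the 3 cells. With KRT10 under 20 CST6 was at −0.62 there, and S100A9 between libraries was at −0.30, or −0.069 without the 5% with the most UMIs. Basal cells were chosen on high KRT14 and low KRT10, and SFRP1 cells on high SFRP1. Ratios of these genes against the cells chosen on them are therefore no independent result. The cause of the other changes was not tested. Of 38 and 39 named genes past 2-fold, 38 and 39 kept it with a KRT6A limit of 40 and after subtraction of 10% free RNA, 37 and 35 with a limit of 10 (GJB2 lost in CT, and KRT14, KRT5, KRT10 and EHF in FT), 37 and 38 with at least 1000 genes and by the mean over cells (LOC102176685 and TAGLN lost in CT, KRT14 in FT), 38 and 38 without the 5% (KRT14 lost), 36 and 38 with KRT10 under 20, 37 in CT without the 3 cells, 32 and 30 against basal cells, and 20 and 17 against SFRP1 cells.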

Other observations

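Of the WNT, BMP, SHH and FGF list, 1 of 14 genes was higher and 5 lower in CT, and 1 of 19 higher and 12 lower in FT, with median log2 ratios of −1.0 and −2.25 against 0.05 and −0.17 over all genes. The higher gene was SFRP1 in both, at 3.32 and 3.30 per 10000, or at 5.85 (4.70 to 7.20) in CT without its 3 deepest cells. BMP2, a growth factor of the epidermis, was at 0.335 and 0.0764 against 0.902 and 0.374 in other cells. Of the EGFR ligands and receptors, 5 of 8 were higher and 1 lower in CT, or 4 and 1 without its 3 deepest cells, and 0 of 8 were called in FT, where EGFR had a log2 ratio of 0.46 against 1.27 in CT. Chemokines and cytokines were 0 of 8 higher and 5 lower, or 6 lower without those cells, and 0 of 9 higher and 6 lower. CCL27, a chemokine of basal keratinocytes, was at 0.149 and 0.593 against 18.6 and 32.4 in basal cells.

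Retinoid, protease and energy genes gave further values. CRABP2, which carries retinoic acid to its receptor, was the 1 higher gene of 6 in the retinoid and lipid binding list in both libraries, at 3.02 and 4.54 against 0.934 and 0.486, with 1 and 2 genes lower. Of the proteases and inhibitors, 6 of 15 were higher and 2 lower in CT, or 3 higher and 4 lower without its 3 deepest cells, and 4 of 15 higher and 2 lower in FT, among them KLK10, a kallikrein, at 3.88 and 10.9 against 1.83 and 2.17 (in CT under 2-fold without those cells, with a log2 ratio of 0.29), and CTSD, a lysosomal protease, at 5.29 and 5.50 against 2.38 and 2.31. Glycogen genes were 1 of 9 and 2 of 9 higher with 0 lower, or 4 of 9 higher in CT without its 3 deepest cells, and glycolysis genes 0 of 12 higher in both with 0 and 3 lower, or 1 lower in CT without those cells. The outer root sheath and companion keratins had 4 of 5 higher and 1 lower in CT and 3 of 5 higher in FT, KRT6A among them. The wound and stress list had 0 of 4 and 0 of 6 higher, and 0 and 1 lower, or 2 lower in CT without those cells, and of the early response list EGR1 alone of 9 was higher in CT, at 13.1 against 5.75, and 0 of 9 in FT. GJB2 and GJB6 varied together over the 242 cells of FT, with a Pearson's r of 0.58 and a Spearman's rho of 0.53, in cells that share 1 library and differ in depth.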
